A study of Mus musculus with 6 samples.

Results

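Hps1, Hps4, Hps3, Hps5, Hps6, Dtnbp1, Bloc1s3, Ap3b1, Vps33a and Lyst build the organelles that hold melanin, and H3K27ac over these 10 of 21951 protein-coding genes was compared between low pigment (LP) and high pigment (HP) B16 cells. The genes were given as a list, and H3K27ac peaks were taken over each gene and 3 kb on either side. Peaks of the 4 libraries were joined into regions, which left 91 regions over the 10 genes of 182956 in the genome. At the start sites, summit pileup was higher in HP on average in all 9 genes that could be tested (median log2 ratio 1.03), as it was in 11961 of the 12084 regions of the genome called in all 4 libraries, and none of the 9 passed the adjusted threshold. Peaks at these start sites also covered more bases in both HP libraries than in both LP libraries in 8 of 9 genes, beside 57.3% of protein-coding start-site regions. In Hps4, Hps5 and Ap3b1, 5 regions (5.49% of the 91, beside 3.94% of all regions) were called in both HP libraries and in neither LP library.

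B16 F10 is a mouse melanoma line whose cells gain pigment over days when grown sparsely. Cells were seeded at 100 cells per cm2, taken on day 5 and sorted from the same culture by side scatter, a flow cytometry measure that stands in for melanin content, so LP and HP are gates on light scatter and not on a melanin assay. H3K27ac, an acetyl mark of active promoters and enhancers, was profiled by chromatin immunoprecipitation and sequencing in 2 LP and 2 HP libraries. The 2 IgG libraries, 1 per replicate number, came from unsorted cells and served as the controls for peak calling. Fixation lasted 10 minutes, in 1% formaldehyde per the labels. All groups share the line, the medium and the seeding density, the line is a tumour line in place of a normal melanocyte, and nothing states that the replicates came from separate cultures, so p-values measure only the spread between these libraries.

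Melanosomes are lysosome-related organelles that receive their enzymes from early endosomes. Hermansky-Pudlak syndrome arises when this delivery fails, with pale skin and hair and faulty platelet granules. BLOC-1, BLOC-2 and the adaptor AP-3 sort and carry cargo out of endosomes, BLOC-3 activates the small GTPases Rab32 and Rab38 on the transport carriers, the HOPS tethering complex readies membranes for fusion, and the giant protein Lyst governs the size of lysosomes and melanosomes.

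The libraries held 11467942 and 15353176 fragments in LP and 11483830 and 14254904 in HP, and pileups, the number of fragments over a summit, are given per 1000000 fragments of the library (FPM), so that 1 fragment was worth 0.0651 to 0.0872 FPM. Melanocyte start sites were marked in every library, with 7 of 8 markers called in all 4 and the other, Slc45a2, called in all but LP replicate 1. Their summed pileup was 12.4 and 11.5 FPM in LP and 23.8 and 34.5 in HP. The highest single melanocyte marker reached 3.05 and 2.54 FPM in LP and 5.31 and 9.33 in HP. None of 3 keratinocyte and none of 3 haematopoietic markers was called in any library. The fibroblast markers Col1a1 and Pdgfra and the endothelial marker Pecam1 were called at 1.57 FPM at most. Pdgfra lay above Tyrp1 in the libraries that called it, at 1.57 against 1.22 in HP replicate 1 and 0.716 against 0.521 in LP replicate 2. HP replicate 2 stood above the other libraries over the genome, with a median log2 pileup of 2.72 at the regions called in all 4 libraries, against 1.97 in HP replicate 1 and 1.29 and 1.38 in LP. What part this has in the differences below was not tested.

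The E-box CACGTG, its longer form TCACGTG and the related TCATGTG are words that Mitf and its relatives are known to bind, and they were searched on both strands in the promoters of the 10 genes. A TCACGTG always contains a CACGTG, so these 2 counts overlap. RefSeq promoter windows, which run from 250 bases before to 50 bases after a start on GRCm38.p6, matched all 10 genes, and those of Hps1, Hps3, Hps5, Bloc1s3 and Vps33a held TCACGTG. It is found in 3.77% of all 32851 promoter windows and in 6.53% of the windows of protein-coding genes marked by H3K27ac in all 4 libraries, where CACGTG is found in 10.5%. TCATGTG was present in Hps1 alone of the 10, beside 3.77% of all windows and 1.90% of those of the marked protein-coding genes. The stretches that hold the matches are shown in the direction of transcription with the matched letters in capitals, and Hps3 and Vps33a are given with the 250 bases before their start.
Hps1, chr19:42779969-42779998, minus strand: cccggTCATGTGgctgagTCACGTGtccta
Bloc1s3, chr7:19508361-19508390, minus strand: cataactcggcTCACGTGAcgctgcgagag
Hps5 first match, chr7:46796091-46796120, minus strand: gggcgctgagggCACGTGAccggaaacgcc
Hps5 next match, chr7:46796056-46796085, minus strand: gggcctccggagCACGTGAccaccaccgcg
Hps3, chr3:20035311-20035560, minus strand: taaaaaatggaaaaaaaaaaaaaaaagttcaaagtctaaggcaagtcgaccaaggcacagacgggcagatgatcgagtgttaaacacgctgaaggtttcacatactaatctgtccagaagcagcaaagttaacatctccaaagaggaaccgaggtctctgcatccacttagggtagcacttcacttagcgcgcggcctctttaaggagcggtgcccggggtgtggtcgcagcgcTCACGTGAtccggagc
Vps33a, chr5:123573016-123573265, minus strand: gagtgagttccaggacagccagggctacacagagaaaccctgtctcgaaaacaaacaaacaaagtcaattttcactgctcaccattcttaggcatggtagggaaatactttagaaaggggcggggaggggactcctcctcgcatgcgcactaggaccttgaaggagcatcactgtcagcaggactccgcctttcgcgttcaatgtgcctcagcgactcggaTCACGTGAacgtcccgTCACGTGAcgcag

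In 4 of these 5 genes the matches sat at the start itself. Counted from the RefSeq start as base 0, the nearest TCACGTG began at base -2 in Hps1, -16 in Hps3, -9 in Bloc1s3 and -13 in Vps33a, whose other copy began at -29. In Hps5 both matches of the window lay farther out, at -227 and -192 and on the opposite strand, in a promoter it shares with Gtf2h1, and a further TCACGTG began at base 80, past the end of the window. Hps4, Hps6, Dtnbp1, Ap3b1 and Lyst had none of the 3 words in the window. In the 300 bases centred on the highest H3K27ac summit of each start-site region, TCACGTG was found in 3 of 10 genes (Hps1, Hps3 and, by the match at base 80, Hps5), beside 2.40% of the 8511 protein-coding start-site regions. With TCACGTG in the window, the log2 ratios of HP to LP at the start sites were 1.34 in Hps3, 1.29 in Bloc1s3, 1.05 in Hps1, 1.03 in Hps5 and 0.80 in Vps33a. Without any of the words they were 1.31 in Dtnbp1, 1.02 in Ap3b1, 0.80 in Hps4 and 0.43 in Lyst. Whether the words go with the ratio was not tested. Lyst, with the lowest ratio of the 9 tested, is shown as a gene without the words, by the 250 bases before its start and no capitals.
Lyst, chr13:13590159-13590408, plus strand: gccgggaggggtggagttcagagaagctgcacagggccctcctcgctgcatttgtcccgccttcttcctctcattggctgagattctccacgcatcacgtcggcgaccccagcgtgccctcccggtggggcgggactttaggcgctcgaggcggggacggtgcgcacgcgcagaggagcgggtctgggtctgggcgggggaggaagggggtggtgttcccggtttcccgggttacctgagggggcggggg

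Hps1 and Hps4 are the 2 subunits of BLOC-3. At the Hps1 start-site region, chr19:42778379-42780337, the summit pileup was 4.97 and 3.19 FPM in LP replicates 1 and 2 and 5.83 and 11.6 in HP replicates 1 and 2. Both HP values lay above both LP values, although HP replicate 1 exceeded LP replicate 1 only slightly. The log2 ratio of HP to LP was 1.05 (SE 0.54, n = 2 per group, limma adjusted p = 0.141). limma gave this same SE to every tested gene. It is thus a spread shared over the tested regions, not that of each gene's own replicates. A noncoding gene, Gm16244, also starts within this region.

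Hps4 carried the second highest mark of the 9 tested genes, at chr5:112342045-112344397, in a promoter that also starts Srrd. Its pileup was 7.15 and 4.69 FPM in LP and 8.10 and 12.5 in HP, again without overlap between the groups. The log2 ratio was 0.80 (SE 0.54, limma adjusted p = 0.227).

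Hps3, Hps5 and Hps6 form BLOC-2, which directs carriers from endosomes to melanosomes. Hps3, at chr3:20034578-20035934, had the highest ratio of the tested genes. Its pileup was 2.62 and 2.21 FPM in LP and 3.31 and 11.2 in HP, which made its log2 ratio 1.34 (SE 0.54, limma adjusted p = 0.0895). The groups did not overlap, and HP replicate 2 held most of the difference, with log2 ratios of 0.34 for replicate 1 and 2.34 for replicate 2.

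Hps5 was the most strongly marked of the 9 tested genes, at chr7:46795298-46798919, where Gtf2h1 starts in the opposite direction. Its pileup was 11.2 and 5.02 FPM in LP and 9.14 and 25.5 in HP, so LP replicate 1 lay above HP replicate 1 and the groups overlapped. The log2 ratio was 1.03 (SE 0.54, limma adjusted p = 0.146), made of -0.29 in replicate 1 and 2.34 in replicate 2. Hps6, a gene of 1 transcript, was the only member with no start-site peak in LP replicate 1. At chr19:46003320-46004687 its pileup was 3.06 FPM in LP replicate 2 and 4.96 and 8.63 in HP. The region was not tested, since a peak list holds no value where no peak was called.

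Dtnbp1 encodes dysbindin and Bloc1s3 another subunit of BLOC-1, the complex that forms tubules on endosomes. Dtnbp1, at chr13:45001064-45002970, had pileups of 3.84 and 4.10 FPM in LP and 7.84 and 12.3 in HP. Here the replicates moved alike, with log2 ratios of 1.03 and 1.58 and a mean of 1.31 (SE 0.54, limma adjusted p = 0.0946). Bloc1s3, at chr7:19506930-19509808, was the least marked of the 9 tested genes. Its pileup was 2.35 and 2.21 FPM in LP and 3.57 and 8.70 in HP, so that its log2 ratio was 1.29 (SE 0.54, limma adjusted p = 0.0965). Both genes were without overlap between the groups, and the Bloc1s3 region also holds the start of Trappc6a.

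Ap3b1 encodes the large beta subunit of AP-3, the adaptor that takes tyrosinase toward the melanosome. At chr13:94358145-94359631, where the noncoding gene Gm9776 also starts, its pileup was 3.40 and 3.58 FPM in LP and 5.57 and 9.05 in HP. The groups did not overlap and the log2 ratio was 1.02 (SE 0.54, limma adjusted p = 0.147). Vps33a, a Sec1/Munc18 protein of the HOPS complex, is marked at chr5:123572125-123573496, with 2.79 and 4.17 FPM in LP and 4.01 and 8.77 in HP. HP replicate 1 lay below LP replicate 2, and the log2 ratio was 0.80 (SE 0.54, limma adjusted p = 0.227). Lyst, the gene of the beige mouse, had the lowest ratio of the 9. At chr13:13590256-13591214 its pileup was 4.71 and 2.67 FPM in LP and 3.31 and 6.94 in HP, so the groups overlapped, and the log2 ratio was 0.43 (SE 0.54, limma adjusted p = 0.468).

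**Figure D1:**
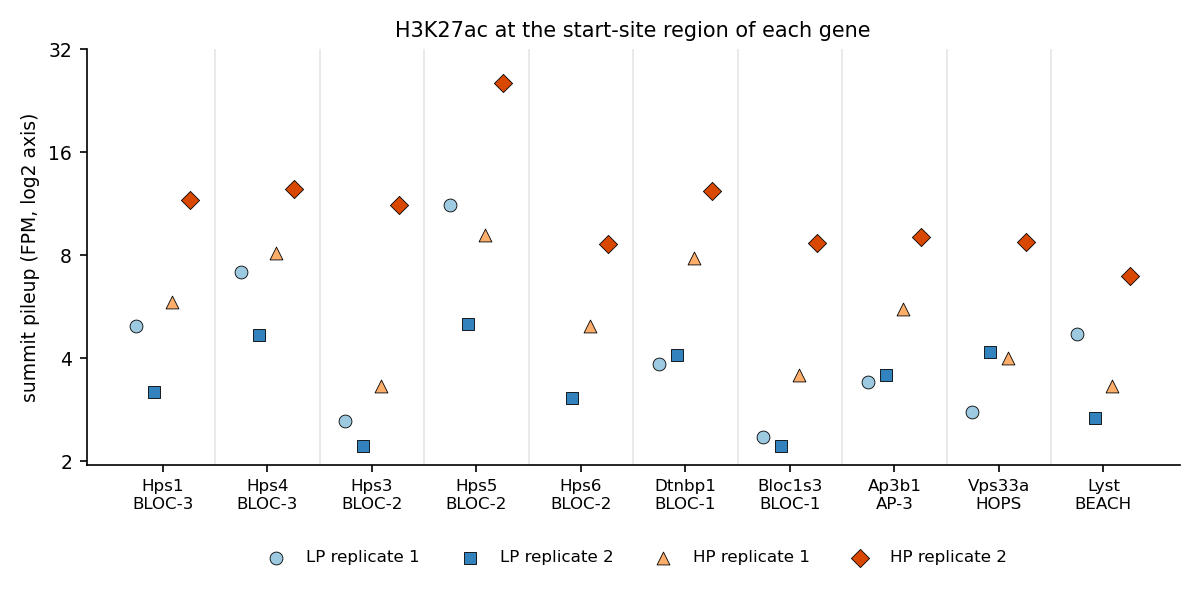
Summit pileup in FPM, on a log2 axis, at the start-site region of each gene, with 1 point per library. HP replicate 2 is the highest library at every gene, Hps5 reaches 25.5, and Hps6 has no value in LP replicate 1.

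Ordered by the geometric mean over the 4 libraries, the levels in FPM were 10.7 in Hps5, 7.63 in Hps4, 6.24 in Dtnbp1, 5.73 in Hps1, 4.98 in Ap3b1, 4.50 in Vps33a, 4.12 in Lyst, 3.83 in Hps3 and 3.57 in Bloc1s3. Hps5 was above Hps4 in 4 of 4 libraries, by 0.49 on the log2 scale (SD 0.43). All other neighbours in this order differed by less than the SD of their difference over the libraries. Among the 8511 protein-coding start-site regions tested, Hps5 stood at percentile 91.9 of the mean level and Bloc1s3 at 35.0.

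The start site was called in all 4 libraries in 9 of the 10 genes, beside 44.1% of protein-coding genes. Of the 10 regions over the genes that were called in all 4 libraries, limma called 0 at an adjusted p of 0.05, beside 4.01% of all 12084 such regions called higher in HP. With the replicate number as a block it called 0 of the 10, beside 0.728%. At an unadjusted p under 0.05, 4 of the 10 passed, beside 36.2%. The groups did not overlap in 6 of the 10, beside 74.8%, and the same 6 were among the 9 start sites, beside 73.8% of protein-coding start-site regions. The median of the log2 ratios was 1.04 over the 10 regions, 0.92 over all 12084 and 0.88 over the protein-coding start-site regions. The 10th region, chr19:42751971-42754032 downstream of Hps1, lies at the start of Pyroxd2, with 1.22 and 2.87 FPM in LP and 2.61 and 6.38 in HP and a log2 ratio of 1.13 (SE 0.54, limma adjusted p = 0.125).

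The size of the difference rested on the replicate and on the scaling. Over the 9 start sites replicate 1 gave a median log2 ratio of 0.34 and replicate 2 gave 1.58, and 7 of 9 were above 0 in replicate 1 against 9 of 9 in replicate 2. Over the protein-coding start-site regions the medians were 0.50 and 1.29, with 80.4% and 99.2% above 0. HP replicate 2 was the highest library in 9 of 9, beside 87.2% of protein-coding start-site regions. Without HP replicate 1, limma called 8 of the 10 regions higher in HP, beside 57.3% of all regions, with the lone HP library assumed to vary as the LP libraries did. When each library was centred on its median, the median ratio of all regions went from 0.92 to -0.087 and that of the 9 start sites to 0.017. Hps3 was then at 0.33, Dtnbp1 at 0.29, Bloc1s3 at 0.28, Hps1 at 0.038, Hps5 at 0.017 and Ap3b1 at 0.014, and Hps4 (-0.21), Vps33a (-0.21) and Lyst (-0.58) lay below 0. Dtnbp1 alone kept both HP values above both LP values after centring, beside 12.1% of all regions.

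**Figure D2:**
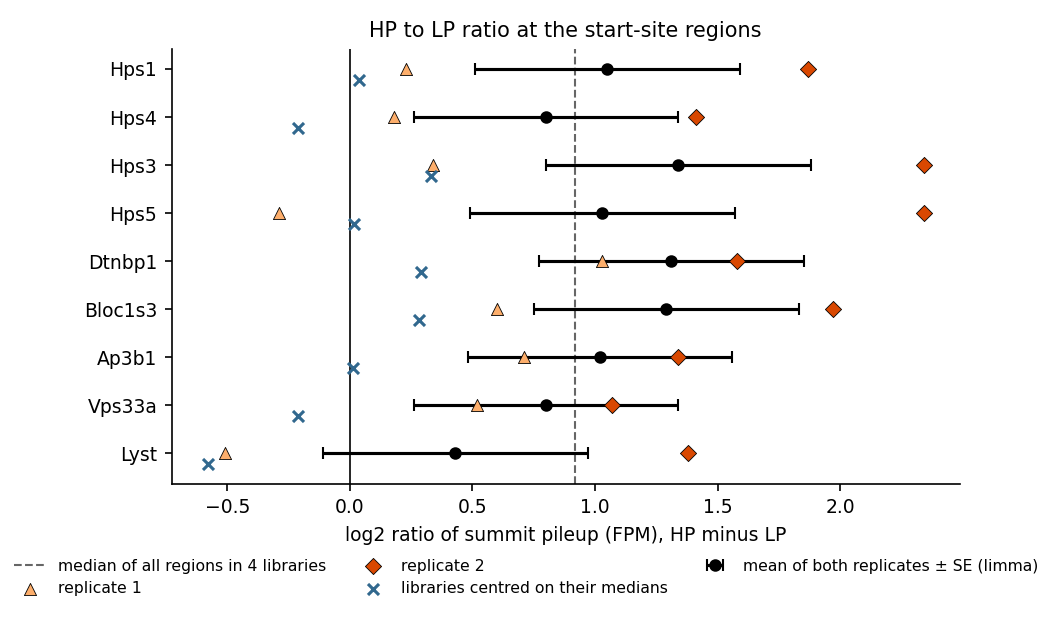
Log2 ratio of summit pileup in FPM, HP minus LP, at the 9 start-site regions called in all 4 libraries. Black points are the means with the SE of limma (n = 2 per group), which is shared and equal for every gene. Triangles and diamonds are replicates 1 and 2, crosses are the means after centring, and the dashed line is the median of all regions, 0.92. Replicate 2 lies to the right of replicate 1 at every gene.

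Peaks at most of the start sites were also longer in HP. Hps1 had 506 and 713 bases under peaks in LP and 1562 and 1385 in HP. Hps4 had 996 and 1050 in LP and 2104 and 2237 in HP. Hps5, which had overlapping pileups, did not overlap here, with 1354 and 2045 bases in LP and 3361 and 3356 in HP. Part of the Hps5 length lay in separate peaks upstream of its start, on the side of Gtf2h1, in every library. In HP replicate 1 such a peak ran from base -2855 to -1096, and the peak over the start ran from -869 to 731. Both HP libraries exceeded both LP libraries in 8 of the 9 genes, all but Lyst, beside 57.3% of protein-coding start-site regions. Lyst had 469 and 932 bases in LP and 580 and 915 in HP. Hps6, which is outside the 9, had 818 bases in LP replicate 2 and 596 and 1314 in HP, so HP replicate 1 was the shorter. Length under peaks also depends on the threshold of the peak caller.

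**Figure D3:**
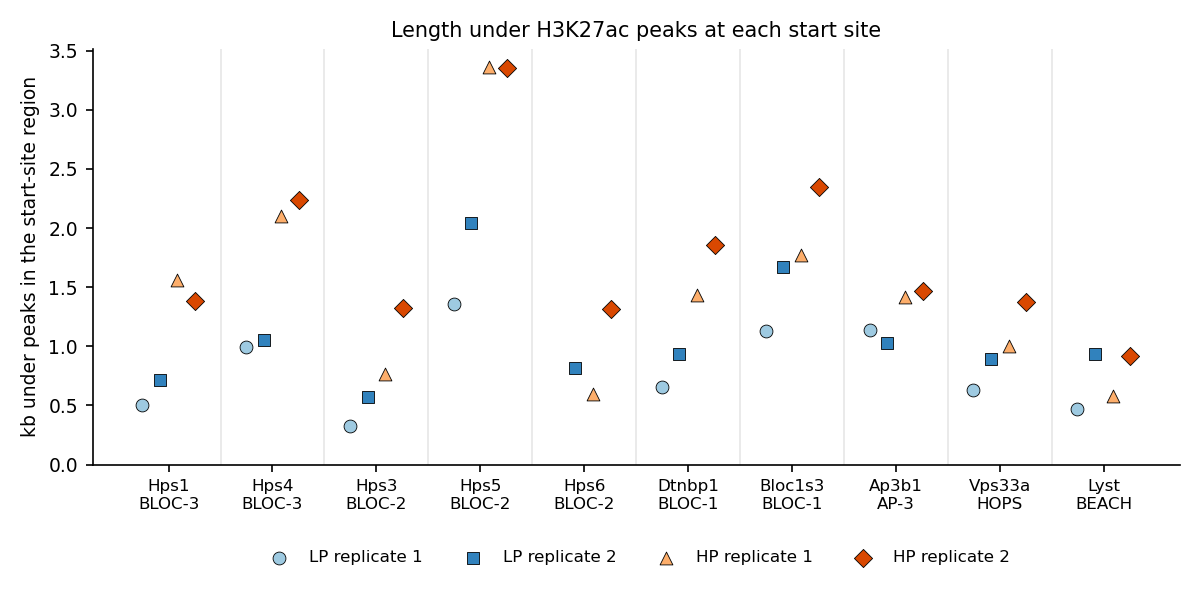
Length in kb under H3K27ac peaks within the start-site region of each gene, with 1 point per library. In Hps1, Hps4 and Hps5 both HP libraries lie well above both LP libraries, whereas in Lyst they overlap. Hps6 has no value in LP replicate 1, and its HP replicate 1 lies below LP replicate 2.

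Of the 91 regions, 58 lay in gene bodies or downstream, outside 3 kb on either side of a transcript start of the gene itself. They include 1 region at the start of another gene, that of Pyroxd2. Most of the others were faint and private to a library. An exception was chr7:46760954-46762340 in Hps5, with 39 fragments in HP replicate 2. Of the 58, 52 were called in 1 library, and the share over body regions of all genes was not taken. The regions called in 1 library, promoters included, had a median summit of 9 fragments. Over promoters and bodies together, 70 of 91 regions (76.9%) were called in 1 library, beside 81.7% of all regions. HP replicate 2 supplied 31 of them alone (34.1% of 91, beside 21.3%) and HP replicate 1 supplied 6 (6.59%, beside 17.1%).

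**Figure D4:**
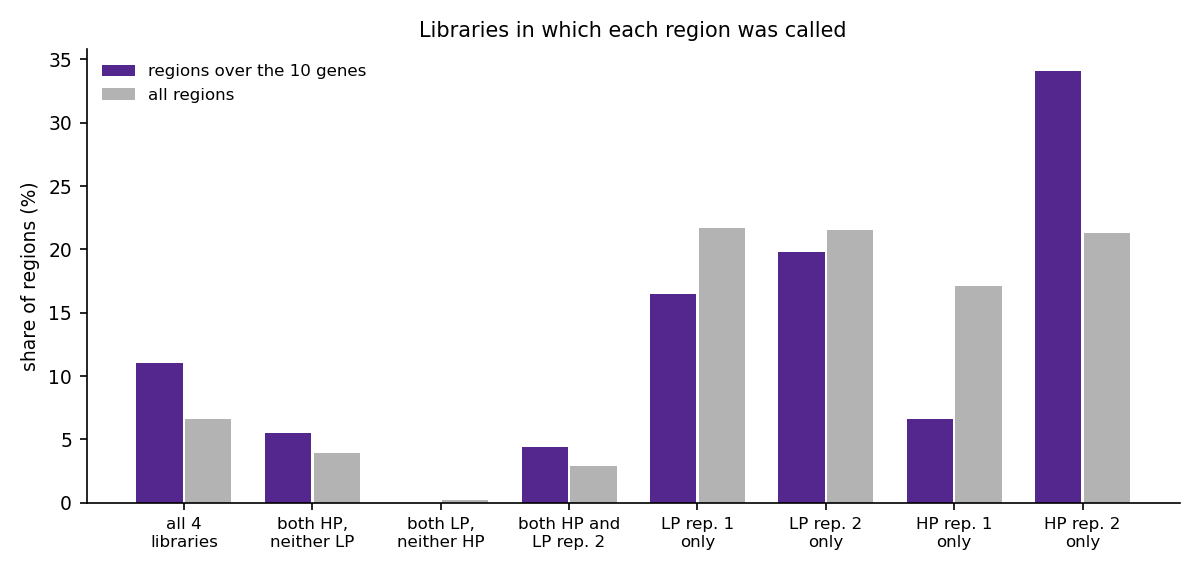
Share of regions, in percent, called in each combination of libraries, for the 91 regions over the 10 genes and for all 182956 regions. Regions called in HP replicate 2 alone make up 34.1% over the genes and 21.3% of all regions, and no region over the genes was called in both LP libraries and neither HP library.

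A region was called in both HP libraries and neither LP library 5 times over the 10 genes, which is 5.49% of 91 beside 3.94% of all regions. The reverse was found 0 times, beside 0.249%. The 5 lie in 3 of the 10 genes, beside 19.4% of protein-coding genes with a peak that hold such a region. The clearest was in an intron of Hps5, chr7:46770354-46770756, with 1.92 and 1.96 FPM in HP, from 22 fragments (exact Poisson 95% interval 13.8 to 33.3) and 28 fragments (18.6 to 40.5). The other in Hps5, chr7:46772697-46774497, had 1.48 and 0.912. Both are within 3 kb of an internal start of an Hps5 transcript. Close beside the second, a separate region, chr7:46772373-46772556, was called in LP replicate 1 alone at 0.698 FPM. Near the first, chr7:46769365-46769545 was also called in LP replicate 1 alone, at 1.13 FPM. In Hps4, chr5:112344605-112345402 directly follows the start-site region and had 1.04 and 1.54 FPM.

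In Ap3b1 the 2 regions, chr13:94388210-94388889 with 0.522 and 1.12 FPM and chr13:94389004-94389395 with 0.522 and 0.491, are neighbours in an intron, away from any start. They rested on few fragments, and the intervals and counts cover counting error only. LP peaks over the same genes were called down to 0.436 and 0.391 FPM, so a missing LP peak says that the threshold was not reached there, not that the mark was absent. The 300 bases around the highest summit are shown for the first Ap3b1 region, which was the only one of the 5 to hold one of the 3 words, TCATGTG read on the opposite strand (capitals). That word is found in 5.10% of the 7200 such windows of regions called in both HP and neither LP.
Ap3b1 intron, chr13:94388550-94388849, plus strand: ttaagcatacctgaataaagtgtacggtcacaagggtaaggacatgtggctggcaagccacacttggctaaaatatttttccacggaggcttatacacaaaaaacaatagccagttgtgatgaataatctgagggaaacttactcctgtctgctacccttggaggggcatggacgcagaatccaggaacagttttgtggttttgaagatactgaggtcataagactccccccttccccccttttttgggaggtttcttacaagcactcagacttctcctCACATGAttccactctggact

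**Figure D5:**
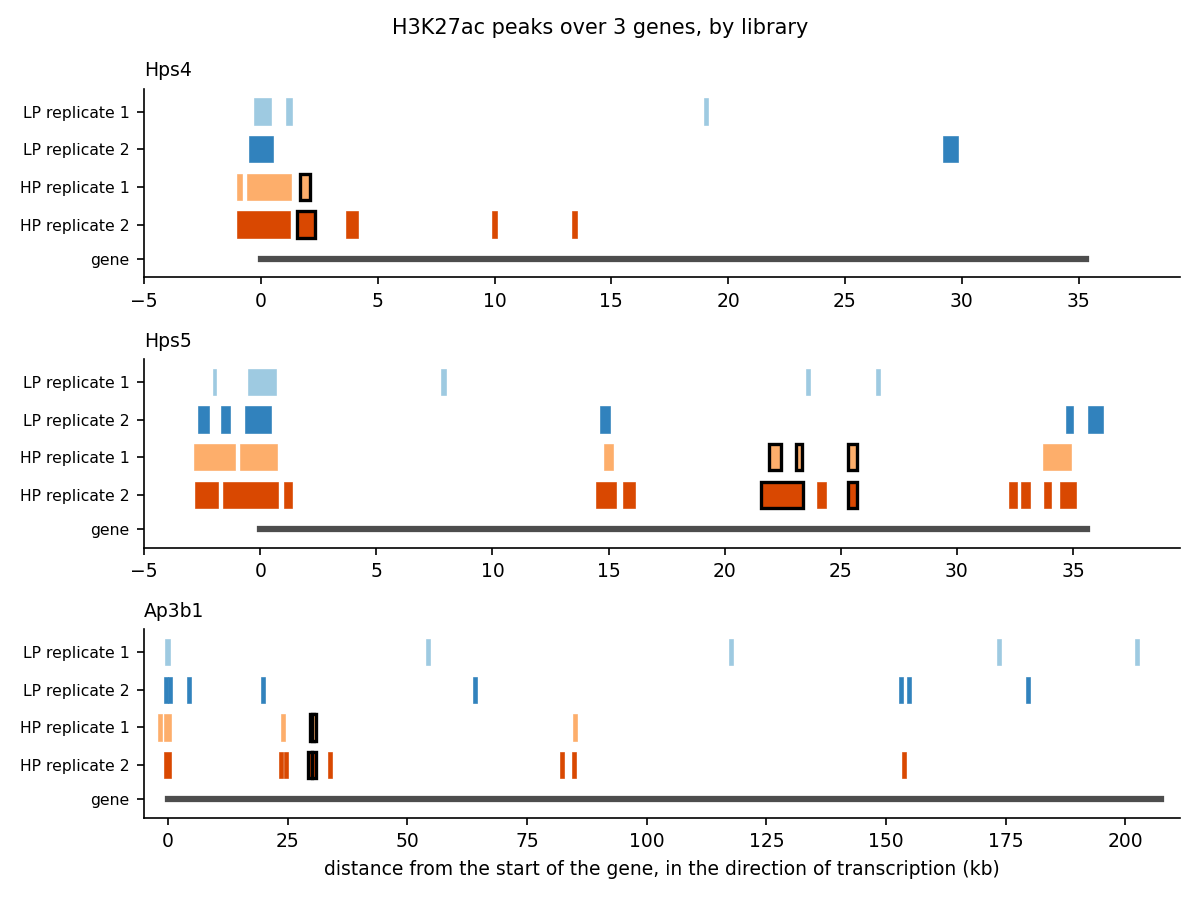
H3K27ac peaks of the 4 libraries over Hps4, Hps5 and Ap3b1, by distance in kb from the start of the gene in the direction of transcription, with very short peaks drawn at a minimum width. Peaks outlined in black belong to the 5 regions called in both HP libraries and neither LP library, which lie near the start in Hps4 and inside the gene in Hps5 and Ap3b1.

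A further 4 regions (4.40%, beside 2.94% of all) were called in both HP libraries and in LP replicate 2. They include the Hps6 start and the strongest body region of Hps5, chr7:46760954-46762340, with 1.24 FPM in LP replicate 2 and 1.74 and 2.74 in HP. In Hps3 the strongest body region, chr3:20001069-20001395, was called at 0.716 in LP replicate 2 and 1.40 in HP replicate 2. In Hps1 the only region of this kind was the one at the start of Pyroxd2. Strongest here means the highest mean pileup over the libraries that called the region. In the other genes with a body region the strongest was called in a single library. It was called in HP replicate 2 in Hps4 (0.702), Ap3b1 (0.912) and Vps33a (0.982). It was called in LP replicate 1 in Dtnbp1 (0.959) and Lyst (1.13), and in LP replicate 2 in Bloc1s3 (0.847). The Ap3b1 region chr13:94388210-94388889, called in both HP libraries, had a higher single value, 1.12 in HP replicate 2, and 0.522 in HP replicate 1. Hps6 had none.

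Counted by library, the 10 genes held 17 and 20 promoter peaks in LP and 21 and 26 in HP, and 11 and 18 body peaks in LP and 10 and 29 in HP, of which 1 per library was the Pyroxd2 start. Promoter peaks were thus more numerous in both HP libraries, and body peaks overlapped between the groups. Within 1 kb of a start the gap narrowed, with 13 and 13 promoter peaks in LP and 15 and 14 in HP. Within 3 kb of protein-coding transcript starts only, they numbered 16 and 15 in LP and 20 and 21 in HP. Promoter peaks were not counted over all genes, so no share stands beside these counts. Only Hps5 had more peaks in both HP libraries (7 and 12) than in both LP libraries (5 and 6), beside 15.4% of genes with a peak, and 0 had fewer, beside 5.88%. The bases under peaks summed to 11308 and 19900 in LP and 22383 and 35694 in HP. The ratio of the means was 1.86, where all peaks of the genome gave 1.54. The mean pileup of these peaks was 2.05 and 1.57 FPM in LP and 2.51 and 2.95 in HP. For the bases under peaks, an exact two-sided permutation test over the libraries gave p = 0.333, the smallest that 2 against 2 allows. The mean pileup was not tested. Hps1, Hps4 and Hps5 had more bases under peaks in both HP libraries, 3 of 10 beside 38.4% of genes with a peak.

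The other subunits and partners of these complexes were read from a list of 30 genes, of which 29 were matched and 26 had a start-site region in all 4 libraries. Of the 26, limma called 2 higher and 0 lower in HP, beside 2.5% of protein-coding start-site regions called higher. At an unadjusted p under 0.05, 11 passed, all higher, beside 31.2%. Vps41, a HOPS subunit like Vps33a, had 0.785 and 2.61 FPM in LP and 2.79 and 8.14 in HP, so that its log2 ratio was 1.74 (SE 0.54, limma adjusted p = 0.0474). The neuronal AP-3 subunit Ap3m2 had 1.74 and 1.11 in LP and 3.40 and 7.37 in HP, so that its log2 ratio was 1.85 (SE 0.54, limma adjusted p = 0.0420). With the replicate number as a block neither passed, at adjusted p = 0.0607 for Vps41 and 0.0552 for Ap3m2. The region of Ap3m2 also holds the start of 1700041G16Rik.

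Ap3s2, a small AP-3 subunit, was next, with 0.785 and 2.02 FPM in LP and 3.13 and 4.70 in HP and a log2 ratio of 1.61 (limma adjusted p = 0.0550). The lowest ratios were 0.21 in Bloc1s1 and 0.40 in both Ap3s1 and Ap1m1. By complex, the median log2 ratio was 0.71 over 6 further BLOC-1 genes, 0.90 over 4 AP-3 genes, 1.34 over 5 HOPS genes and 1.19 over 4 Rab and SNARE partners. It was 0.99 over all 26, beside 0.88 over the protein-coding start-site regions. Vps33b and Ap1s1 lacked a peak in LP replicate 1 only, and Ap3b2, a neuronal AP-3 subunit, was called in LP replicate 2 only, at 0.586 FPM.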

How the data were processed

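H3K27ac libraries of LP and HP cells (2 each) and IgG of unsorted cells (2) were grouped by their labels. Per the study's methods and the submitters' notes, the authors trimmed reads with Trimmomatic 0.33, aligned them to mm10 with Bowtie2 2.5.1 and ran MACS 3.0.0b1 on each library to find narrow peaks (q-value cutoff 0.05, duplicates kept). The IgG library that shares the replicate number was the control. The deposited lists give the pileup signal (coverage by fragments at the summit, unscaled), the fold enrichment ratio over the local background, −log10 p-values and q-values, and a score. All columns of samples were mapped.

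Pileups were scaled to 1000000 of the library's fragments (FPM), with totals from the authors' files. Peaks sharing at least 1 bp were merged into regions, and a region took its highest summit per library. Genes were placed by GENCODE M21. The start-site region is the strongest region within 1 kb of a protein-coding transcript start. limma 3.58.1 (R 4.3.3) compared log2 scaled pileup, HP minus LP, over the 12084 regions called in all 4 libraries, with Benjamini-Hochberg adjustment and a threshold of 0.05. Replicates share a number, an IgG control and an equal DNA input, so the numbers pair the samples. The difference between replicates in LP correlated at 0.0153 with that in HP over 12084 regions. The reported fit has no replicate block, and the fit with the block was an alternative. The members, the list of partners, the markers and the motif words were chosen with earlier results of these data known. All members were named, with body regions called only in HP or strongest in their gene, and partners that were called or had the 3 highest or lowest ratios. Fold enrichment and q-values only described or filtered peaks. The merging, the permutation test and the limma step were tested on simulated data. Scripts ran in Python 3.11.15 with scipy 1.17.1 and pandas 2.3.3.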

Additional observations from a re-analysis of the deposited data

How the results depend on the processing

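Depth limits what a missing peak can show, since the lists start at 5 or 6 fragments. With 2 libraries per group, limma gave each ratio the same SE of 0.54. That SE is shared over the tested regions and does not show how far the replicates of a single gene differed. The count of regions over the genes called higher in HP was 0 of 10. It was also 0 with the replicate block, a q-value of at most 0.01, merging at 100 bp and other flanks. Over all regions, 0.728% were called with the block, 2.84% at the stricter q-value and 3.47% with merging at 100 bp. With centring, quantile normalization and mean summits, 0 of all 12084 regions were called, so these settings say nothing particular to the genes. The median log2 ratio of the regions over the genes, 1.04, fell to 0.028 with centring and 0.14 with quantile normalization. It ranged from 0.43 to 1.59 with a library or replicate left out. It was 1.04 with the replicate block, and the smallest adjusted p was then 0.104. The 5 regions called in both HP and neither LP became 8 within 10 kb of the genes, with 1 in reverse. With single lists they numbered 36 without replicate 1 and 16 without replicate 2, against 19 and 15 in reverse, and the replicate block, their mean, gave 26 against 17. The HP to LP ratio of bases under peaks, 1.86, was 1.89 with the block. It was 1.77 over the genes without flanks, where the permutation test gave p = 0.667. The 84 promoter peaks became 55 with 1 kb on either side.

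Reversed ratios were found in 4 genes. Hps4 gave -0.21 with centring and -0.0038 with quantile normalization, Vps33a gave -0.21 with either, and Lyst gave -0.58 with centring and -0.48 with quantile normalization. With libraries left out, Lyst ranged from -0.51 (without replicate 2) to 1.38, with -0.10 without HP replicate 2, and Hps5 ranged from -0.29 (without replicate 2) to 2.34. The cause was not tested. The other 5 tested genes, Hps1, Hps3, Dtnbp1, Bloc1s3 and Ap3b1, stayed above 0 under every alternative run. With centring their ratios, from 0.014 in Ap3b1 to 0.33 in Hps3, were smaller than the SE of 0.43, so they could not be told from 0.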
